A study of Homo sapiens with 15 samples.

Results

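The 43 genes described here are interferon-stimulated genes, the STAT and IRF factors that switch them on, and the sensors of foreign or double-stranded RNA that act ahead of them, picked by gene symbol from a table of 62754 gene identifiers. Every symbol matched a row, and 28 of the 43 had enough reads to enter the test, among 19781 genes tested in all. They were followed in NCI-H69, an established line of classic small cell lung cancer, under 3 treatments with 3 libraries each. The treatments were DMSO, the solvent control, and CS2 and FB23-2, which the series names as inhibitors of FTO, the demethylase that removes N6-methyladenosine from RNA. CS2 is a code under which brequinar, long known as an inhibitor of the pyrimidine synthesis enzyme DHODH, was described as an FTO inhibitor. The sources used here do not give dose or length of treatment, all 9 libraries are of a single line grown in culture, and 6 libraries of the line H82 were not analysed here. The series calls the libraries of a group biological replicates, and nothing further says whether they came from separate cultures, so p-values measure the spread between these libraries, which may be technical.

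Cells detect double-stranded or otherwise foreign RNA in the cytosol through RIG-I (gene RIGI) and MDA5 (IFIH1), which signal through the mitochondrial adaptor MAVS. IRF3 and IRF7 then induce type I interferon, and interferon bound to its receptor drives a complex that contains STAT2 and IRF9 onto interferon-stimulated response elements. The products of the induced genes bind or degrade viral RNA, tag proteins with ISG15, block viral entry and replication, and feed back on the pathway. Classic small cell lung cancer is known for low interferon signalling and low antigen presentation.

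Promoters of 9 tested members that each hold more than 1 match to the core of the response element are shown because this element is the sequence that the complex with STAT2 and IRF9 is known to bind. Each is the 170 bases before the RefSeq gene start on GRCh38.p14, in the direction of transcription, and capitals mark matches on either strand to that core, read here as GAAA, any 2 bases, GAAA (TTTC, any 2 bases, TTTC on the other strand), with overlapping matches run together. The windows are IFI27 at chr14:94110566-94110735 (plus strand), IFI6 at chr1:27672193-27672362 (minus strand), ISG15 at chr1:1013327-1013496 (plus strand), IFIT1 at chr10:89392453-89392622 (plus strand), IFIT3 at chr10:89327827-89327996 (plus strand). The others are IFIT5 at chr10:89414398-89414567 (plus strand), OAS3 at chr12:112938304-112938473 (plus strand), IFIH1 at chr2:162318685-162318854 (minus strand), HERC5 at chr4:88456949-88457118 (plus strand).
IFI27: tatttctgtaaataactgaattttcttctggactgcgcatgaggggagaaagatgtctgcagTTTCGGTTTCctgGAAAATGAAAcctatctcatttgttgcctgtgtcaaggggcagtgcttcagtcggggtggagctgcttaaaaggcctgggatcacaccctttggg
IFI6: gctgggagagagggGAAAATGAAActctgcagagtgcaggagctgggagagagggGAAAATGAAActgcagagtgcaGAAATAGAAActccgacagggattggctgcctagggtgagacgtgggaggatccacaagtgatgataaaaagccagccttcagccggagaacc
ISG15: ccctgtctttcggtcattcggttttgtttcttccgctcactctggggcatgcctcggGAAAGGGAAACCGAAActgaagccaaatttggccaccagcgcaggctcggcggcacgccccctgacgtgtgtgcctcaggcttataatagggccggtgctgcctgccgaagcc
IFIT1: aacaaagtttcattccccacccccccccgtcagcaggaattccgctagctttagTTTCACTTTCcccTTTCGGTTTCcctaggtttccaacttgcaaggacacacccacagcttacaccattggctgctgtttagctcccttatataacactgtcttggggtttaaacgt
IFIT3: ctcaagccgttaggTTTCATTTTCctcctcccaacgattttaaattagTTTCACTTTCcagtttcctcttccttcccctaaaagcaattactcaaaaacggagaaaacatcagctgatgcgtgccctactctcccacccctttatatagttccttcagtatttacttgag
IFIT5: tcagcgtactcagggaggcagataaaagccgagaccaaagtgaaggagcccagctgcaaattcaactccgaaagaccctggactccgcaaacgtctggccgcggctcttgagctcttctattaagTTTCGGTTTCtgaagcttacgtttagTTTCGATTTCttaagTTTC
OAS3: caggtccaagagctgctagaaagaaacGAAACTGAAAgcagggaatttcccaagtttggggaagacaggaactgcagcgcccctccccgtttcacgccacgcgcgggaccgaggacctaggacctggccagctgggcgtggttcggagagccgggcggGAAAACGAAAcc
IFIH1: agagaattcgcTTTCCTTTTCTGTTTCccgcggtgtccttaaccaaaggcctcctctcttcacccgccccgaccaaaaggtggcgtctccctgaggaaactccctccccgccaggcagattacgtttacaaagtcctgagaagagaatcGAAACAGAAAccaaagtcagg
HERC5: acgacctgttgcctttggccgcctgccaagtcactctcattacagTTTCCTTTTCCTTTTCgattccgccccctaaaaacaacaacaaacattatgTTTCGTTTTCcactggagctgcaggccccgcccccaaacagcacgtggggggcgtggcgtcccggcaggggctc
The last match of IFIT5 runs past the gene start, so only its leading bases are printed.

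In the RefSeq windows from 250 bases before to 50 bases after a gene start, 34 of the 43 members had an entry. Of these, 20 (58.8%) held the core on either strand, against 996 of the 27305 symbols with a window (3.65%) and 335 of 12577 tested genes (2.66%). Where a gene has several start windows the earliest in the table was read. With any of its windows allowed, PARP9 and RSAD2 were added (22 of 34, 64.7%, against 4.38% of all symbols). TTCNNNGAA, the core of the gamma-activated site of type II interferon signalling, reads the same on both strands and was in 9 of 34 members (26.5%) and 7.88% of all symbols, and with any window in 11 members (32.4%, MX1 and SP110 added) and 9.38%. The motifs can overlap, for example in IFI27 and IFITM1. Members known to be induced by interferon carry such elements by the nature of the list, so these shares describe the members and are no result of the treatments.

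**Figure D1:**
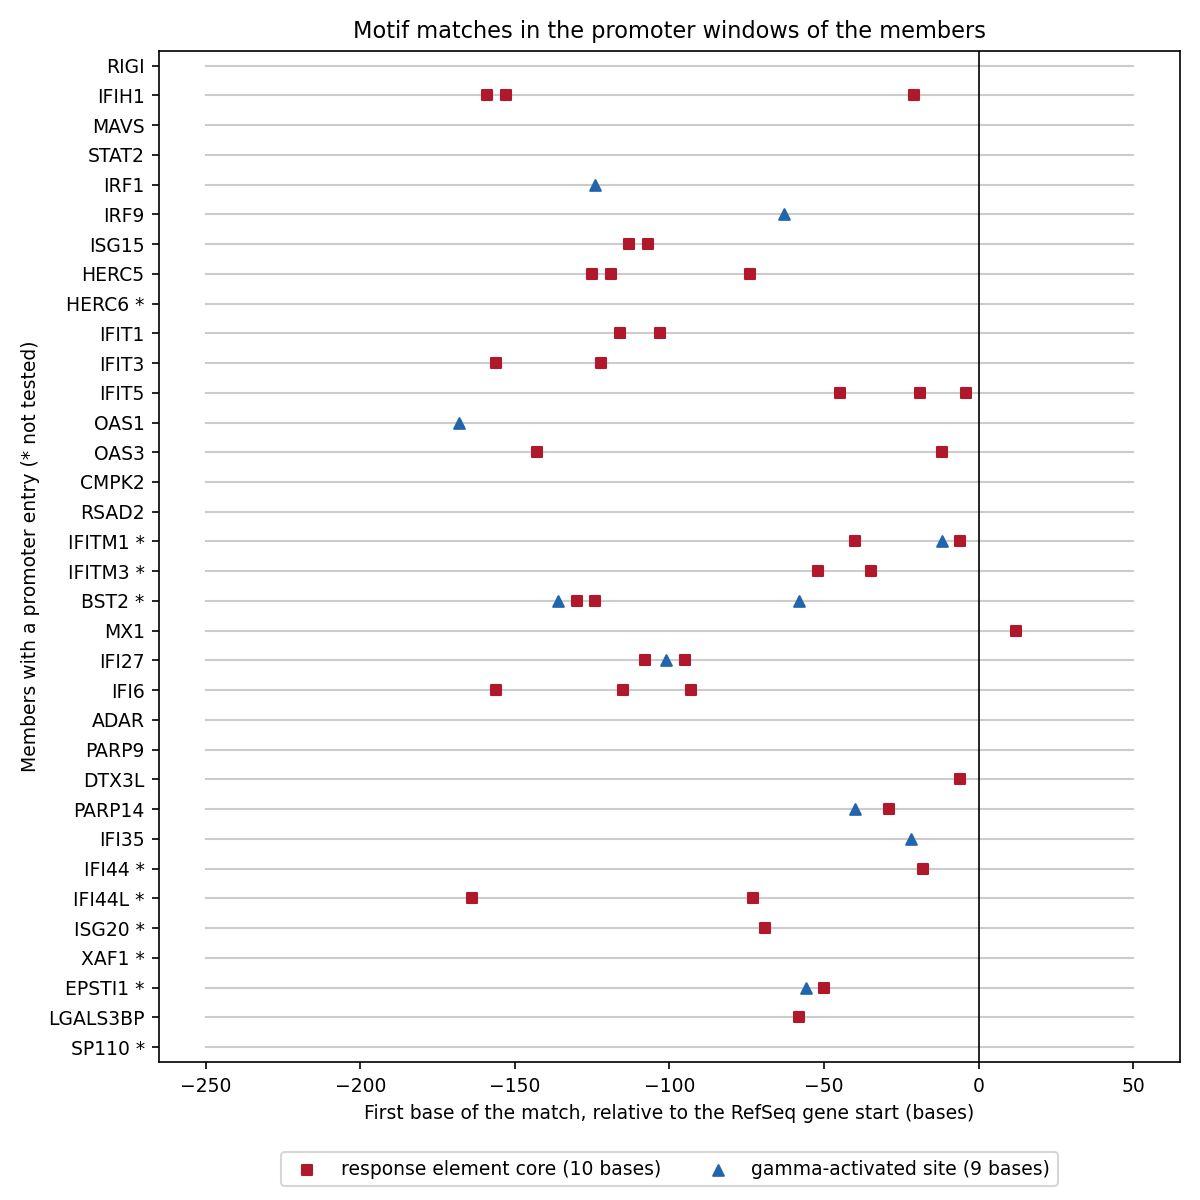
Positions of motif matches in the promoter windows of the 34 members with a RefSeq entry; the x axis is the first base of a match relative to the gene start, in bases, squares are the response element core and triangles TTCNNNGAA, and an asterisk marks members that were not tested. Most squares lie within 170 bases before the start. RIGI, MAVS, ADAR, STAT2, CMPK2, RSAD2, PARP9, HERC6, XAF1 and SP110 have no match of either kind in the windows drawn.

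The libraries held 29916267 to 45022633 reads assigned to genes, so that 3 counts correspond to between 0.0666 and 0.1 CPM, the read count relative to library size, with TMM scaling. Mitochondrial genes took 5.18% to 5.69% of counts with DMSO, 7.3% to 9.05% with CS2 and 6.83% to 10.97% with FB23-2, highest in FB23-2 replicate 2. That library stood apart: its counts differed from those of the other FB23-2 libraries by a chi-square per degree of freedom of 48.9 and 47, against 7.35 between those 2 and 4.16 to 14 within the other groups. Without it, 23 members were higher and 2 lower with CS2, 14 higher and 5 lower with FB23-2, and 2 higher and 15 lower with FB23-2 than with CS2, against 20, 2, 13, 5, 2 and 14 with all libraries. All 10 markers of classic small cell lung cancer cells were tested. Their summed level was 4150 to 4460 CPM with DMSO, 3260 to 3430 with CS2 and 3060 to 3500 with FB23-2. They did not move alike: 1 was called higher and 6 lower with CS2, and 2 higher and 7 lower with FB23-2. Of all genes tested, 24.3% were higher and 25.3% lower with CS2, and 25.4% and 26.7% with FB23-2. Of 10 leukocyte markers 2 were tested, their sum stayed between 2.09 and 4.18 CPM in all libraries, and CD3E and NKG7 were among those at 0 throughout. The 8 fibroblast markers summed to 54 to 55.9 CPM with DMSO, 36 to 42.5 with CS2 and 11.9 to 16.5 with FB23-2, with COL3A1 and DCN at 0. Most of that sum was COL1A2 (53 ± 0.91, 35.1 ± 3.4 and 12 ± 2.4 CPM), while THY1 was 3.19-fold higher with CS2 (adjusted p = 2.47e-05) and COL1A1 1.85-fold higher with FB23-2 (adjusted p = 0.0367). The 5 endothelial markers summed to 2.08 to 2.49, 0.201 to 0.732 and 0.117 to 0.479 CPM. All libraries are of a single cultured line, so these sums are levels of marker transcripts and no count of cells of those types. In bulk RNA, fewer cells that express a marker and less of it per cell cannot be told apart. The part of these shifts in the results below was not tested.

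Under DMSO the members spanned a wide range of levels. Per transcript length (TPM, a level that corrects for gene length, mean ± SD of 3 libraries), the secreted glycoprotein LGALS3BP was highest at 179 ± 3.7, followed by the RNA editing enzyme ADAR at 163 ± 4.1 and the ISG15 protease USP18 at 132 ± 5.5. OAS3 (62.6 ± 1.2), MAVS (52.5 ± 1.4), IRF3 (38.2 ± 2.0) and STAT2 (23.6 ± 1.9) came next. The classical markers of an interferon response were low: IFI6 stood at 16.6 ± 3.9 TPM, IFIT1 at 6.43 ± 0.58, ISG15 at 5.83 ± 0.42, IFI27 at 0.719 ± 0.089 and MX1 at 0.196 ± 0.082. The sensors IFIH1 (1.55 ± 0.54) and RIGI (1.11 ± 0.23) were also low, and their levels lay within each other's spread. In this order IFIT1, ISG15 and DTX3L (5.93 ± 0.39) did not differ beyond their spread either. Summed over all 43 members, the level was 1120 to 1140 CPM with DMSO, 1370 to 1460 with CS2 and 1070 to 1150 with FB23-2, and most of each sum came from ADAR, LGALS3BP, MAVS and OAS3.

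The 15 members that were not tested had few reads or none. IFI44L, IFITM1 and XAF1 had 0 counts in all 9 libraries, which allows up to 0.1 CPM in the shallowest library. BST2, TRIM22, IFITM2, IFI44 and OASL had 2 to 13 counts over all libraries. HERC6, IFITM3, OAS2, SP110, DHX58, ISG20 and EPSTI1 had 38 to 70. For DHX58, the third RIG-I-like receptor, the DMSO libraries summed to 19 counts, the CS2 libraries to 12 and the FB23-2 libraries to 34, and for OAS2 these sums were 8, 26 and 16. Few reads were thus assigned to the membrane barriers of the IFITM family and BST2 under any treatment. IFITM1, IFITM2, IFITM3 and XAF1 share 21.3% to 38.3% of their exon bases with other genes, so reads could also have been withheld from them in counting.

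**Figure D2:**
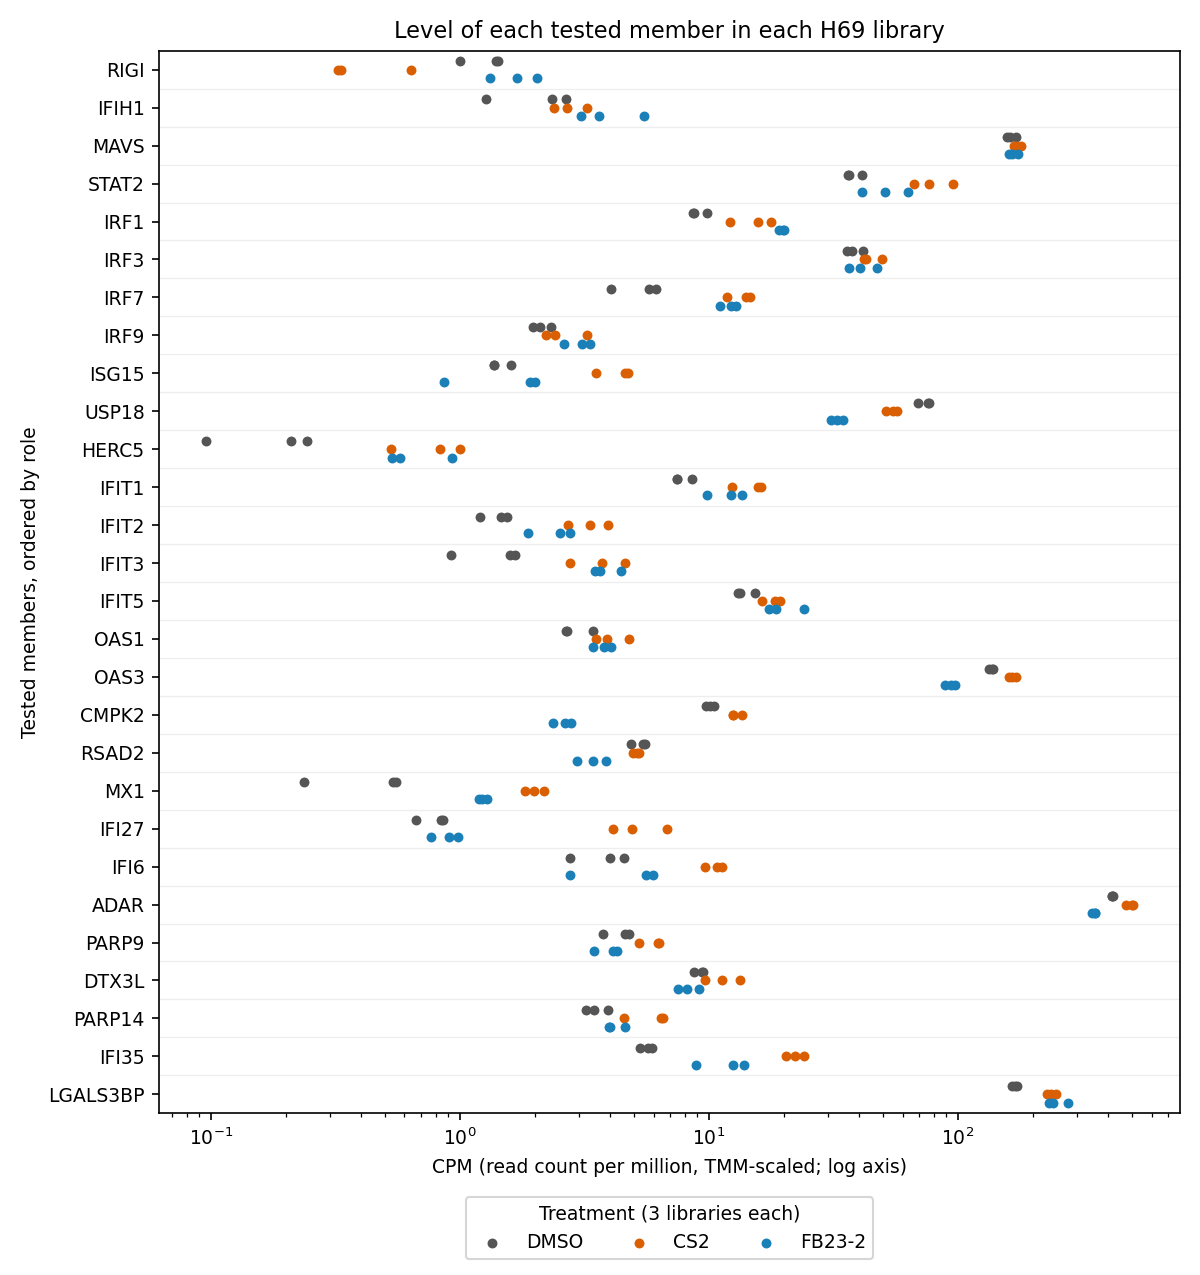
CPM of each tested member in each of the 9 libraries, on a log axis, with members ordered by role and points coloured by treatment. Levels reach from 0.0954 CPM for HERC5 with DMSO to 507 CPM for ADAR with CS2; the CS2 points stand to the right of the DMSO points for IFI27, IFI35, ISG15 and MX1, and to the left for RIGI.

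With CS2, most of the tested members were higher than with DMSO. By the quasi-likelihood test of edgeR, adjusted by Benjamini-Hochberg over the whole table, 20 of 28 rose, 2 fell (RIGI and USP18) and 6 did not pass. Of all genes tested 49.7% passed, 24.3% higher and 25.3% lower. The median log2 fold change of the 28 was 0.48, against 0 over all genes, with a range from -1.56 for RIGI to 2.75 for IFI27. The largest rises were in IFI27, MX1, HERC5, IFI35, ISG15, IFI6, IFIT3 and IRF7. HERC5 reached the minimum of the filter on low counts in 0 of 3 DMSO libraries and MX1 in 2 of 3, so both passed it through the treated groups, and HERC5 had to be higher there to be tested at all.

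With FB23-2, the members split. Against DMSO, 13 of 28 rose, 5 fell (CMPK2, USP18, RSAD2, OAS3 and ADAR) and 10 did not pass, while 52% of all genes tested passed, 25.4% higher and 26.7% lower. The median log2 fold change was 0.38, against 0 over all genes, with a range from -1.96 for CMPK2 to 1.82 for HERC5, which entered the test only through the treated groups. IFIT3, MX1, IRF7, IRF1 and IFI35 were among the largest rises, and MX1 too passed the filter through the treated groups. IFI27, IFI6 and ISG15, among the largest rises with CS2, did not pass with FB23-2. Both comparisons share the 3 DMSO libraries, so they are given side by side, and OAS3, CMPK2 and ADAR were called in opposite directions in them. The call for CMPK2 with CS2 is the weakest of these and was lost when DMSO replicate 2 was left out (adjusted p = 0.0877), as detailed with that gene.

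Set directly against each other, the compounds differed in 16 of the 28 members. FB23-2 was lower than CS2 in 14 and higher in 2, RIGI and IRF1, while 12 did not pass. Of all genes tested 59.6% passed, 29.7% higher and 30% lower. The median log2 difference was -0.47, against 0.01 over all genes, and it ranged from -2.58 for IFI27 to 1.96 for RIGI. Without CS2 replicate 3, IRF1 no longer passed (log2 0.24, adjusted p = 0.106) and 1 member was higher. CMPK2, IFI27, ISG15, IFI6, IFI35 and OAS3 had the largest deficits with FB23-2.

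**Figure D3:**
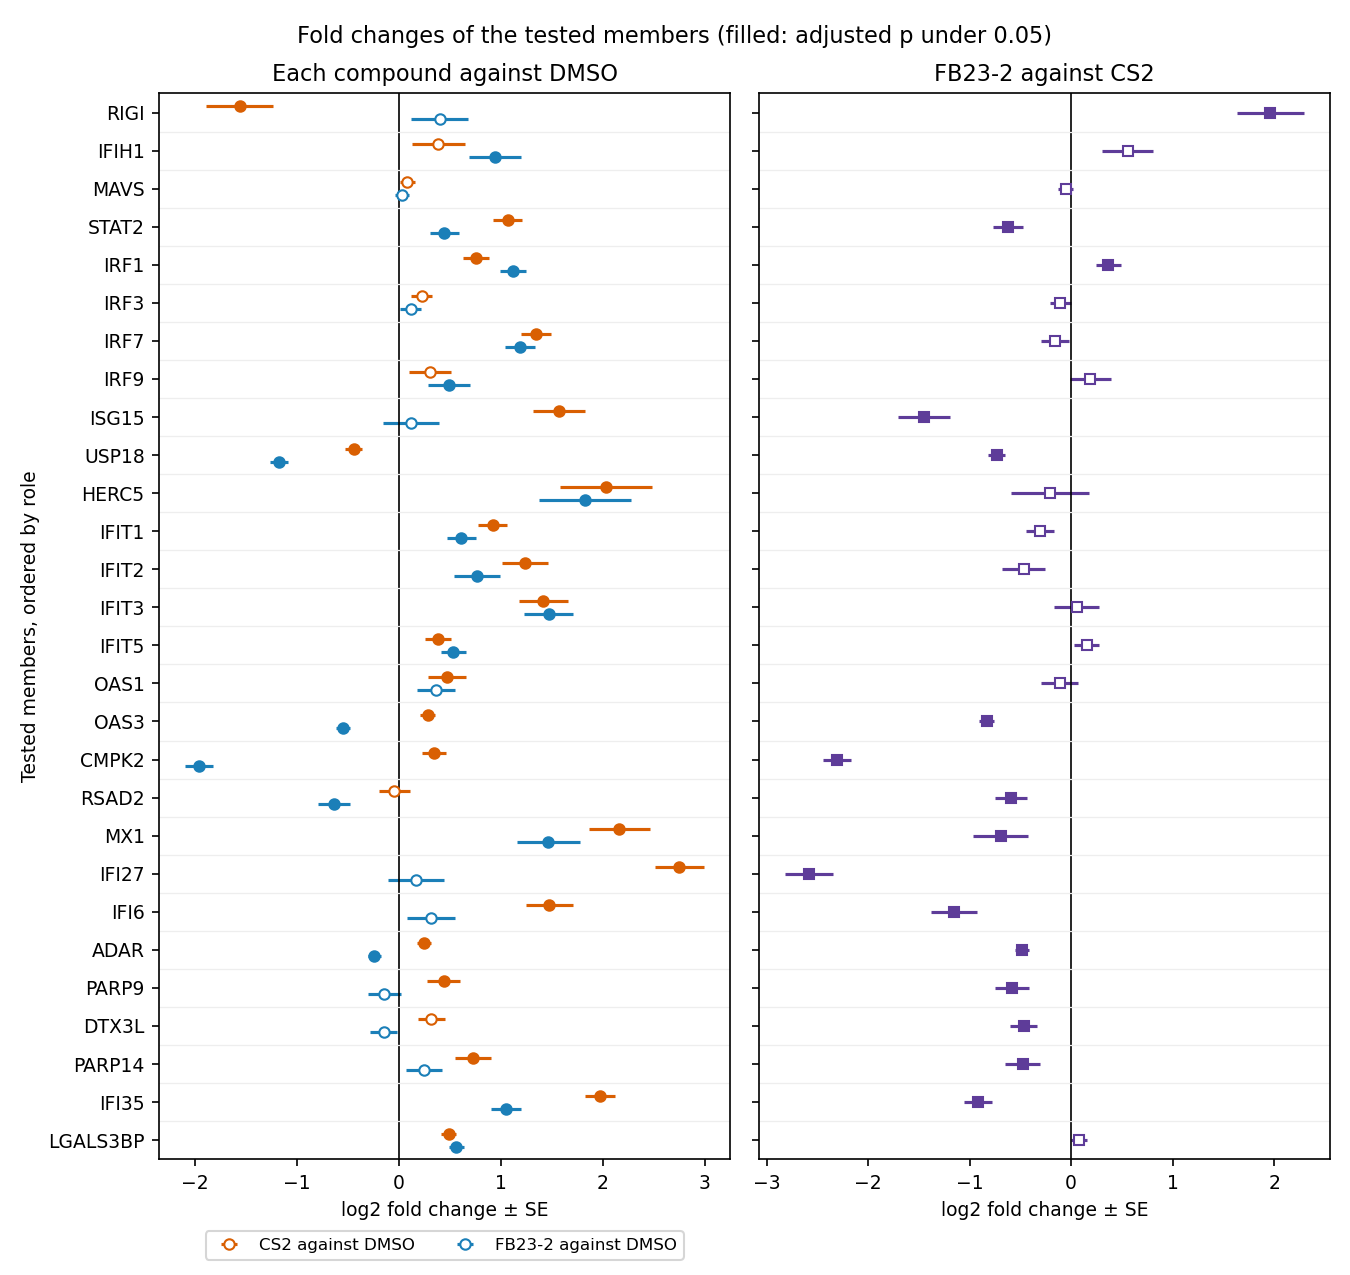
Log2 fold changes (± SE) of the 28 tested members, ordered by role: left, each compound against DMSO (circles), right, FB23-2 against CS2 (squares), with filled symbols for adjusted p under 0.05. IFI27 stands farthest right for CS2 (2.75) and CMPK2 farthest left for FB23-2 (-1.96), and in the right panel 14 filled squares lie below 0 and 2 above it.

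The RNA sensors moved in different ways. RIG-I, encoded by RIGI (chr9:32455705-32526324, minus strand), senses RNA with a 5′ triphosphate. RIGI was at 1.00, 1.40 and 1.42 CPM in the 3 DMSO libraries, 0.324, 0.637 and 0.333 with CS2, and 1.70, 1.32 and 2.04 with FB23-2. All CS2 libraries lay below all others, and the FB23-2 and DMSO libraries overlapped. The gene was 2.96-fold lower with CS2 than with DMSO (log2 fold change -1.56 ± 0.33, adjusted p = 6.39e-04) and 3.90-fold higher with FB23-2 than with CS2 (1.96 ± 0.33, adjusted p = 3.58e-05). FB23-2 against DMSO gave 0.40 ± 0.28 and did not pass (adjusted p = 0.245). These values rest on 10 to 19 counts per CS2 library, and the 3 calls were the same in all 19 alternatives run.

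MDA5, encoded by IFIH1 (chr2:162267079-162318703, minus strand), senses long double-stranded RNA. IFIH1 was at 2.34, 1.27 and 2.66 CPM with DMSO, 2.39, 3.25 and 2.69 with CS2, and 3.07, 5.49 and 3.62 with FB23-2. Every FB23-2 library was above every DMSO library, and the CS2 values lay between and overlapped both groups. It was 1.92-fold higher with FB23-2 than with DMSO (0.94 ± 0.26, adjusted p = 0.0042), and CS2 against DMSO did not pass (0.39 ± 0.26, adjusted p = 0.234). FB23-2 against CS2 missed the threshold (0.56 ± 0.25, adjusted p = 0.0651) and passed without DMSO replicate 2 (adjusted p = 0.0424) or FB23-2 replicate 1 (0.73, adjusted p = 0.0199). MAVS, the adaptor shared by both sensors (chr20:3846799-3876123, plus strand), was at 158 to 171 CPM with DMSO, 168 to 179 with CS2 and 160 to 174 with FB23-2. Its log2 fold changes were 0.08 ± 0.07 and 0.03 ± 0.07 against DMSO and -0.05 ± 0.07 between the compounds, and none passed.

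**Figure D4:**
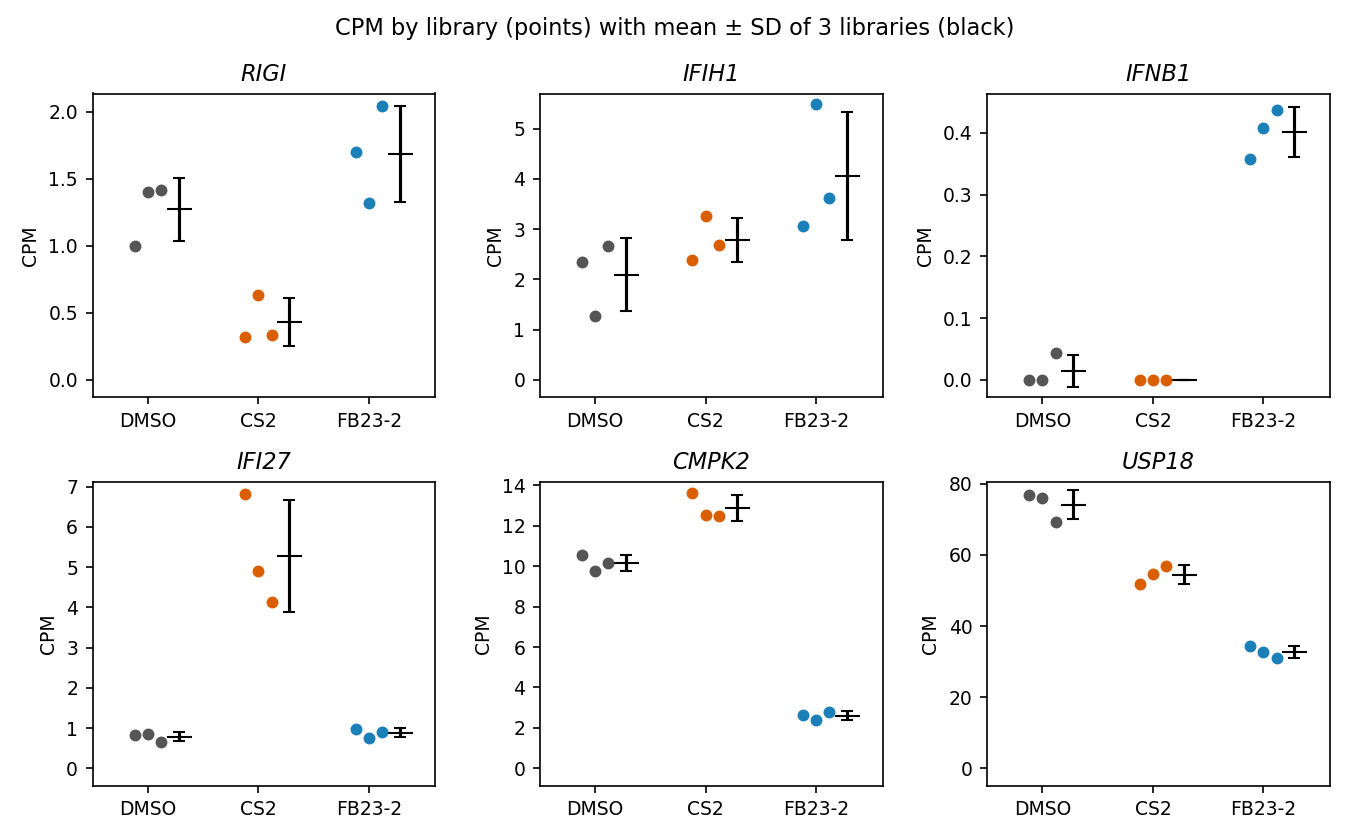
CPM of 6 genes by treatment, with a point for each library and the mean ± SD of 3 libraries in black: the sensors RIGI and IFIH1, the interferon gene IFNB1, and the members IFI27, CMPK2 and USP18. RIGI is lowest with CS2, IFIH1 and IFNB1 are highest with FB23-2, IFI27 is highest with CS2, and CMPK2 and USP18 are lowest with FB23-2.

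Of the 5 transcription factors, 3 rose with CS2 and 4 with FB23-2, beside 24.3% and 25.4% of all genes tested, and the calls of IRF9 and STAT2 with FB23-2 depended on single libraries, as given with each. IRF7, which amplifies interferon production and is itself interferon-induced (chr11:612553-615999, minus strand), was at 6.13, 4.04 and 5.75 CPM with DMSO, 14.6, 14.2 and 11.9 with CS2, and 11.1, 12.9 and 12.3 with FB23-2. The treated libraries were all above the DMSO libraries and overlapped each other. IRF7 was 2.54-fold higher with CS2 (1.34 ± 0.15, adjusted p = 3.74e-07) and 2.27-fold higher with FB23-2 (1.18 ± 0.15, adjusted p = 1.69e-06), and the compounds differed by -0.16 ± 0.14 (adjusted p = 0.348). IRF1, a factor that responds to type II interferon and inflammatory signals (chr5:132481609-132490798, minus strand), was at 9.82, 8.75 and 8.64 CPM with DMSO, 17.8, 15.8 and 12.2 with CS2 and 20.1, 19.9 and 19.1 with FB23-2. It was 1.68-fold higher with CS2 (0.75 ± 0.13, adjusted p = 7.38e-05) and 2.17-fold higher with FB23-2 (1.12 ± 0.13, adjusted p = 5.19e-07). The 0.37 ± 0.13 by which FB23-2 exceeded CS2 (adjusted p = 0.0161) depended on CS2 replicate 3, the lowest of its group, without which it was 0.24 (adjusted p = 0.106). In exon bases, 22% of IRF1 is shared with C5orf56 on the opposite strand, and the sources used here do not say whether reads were counted by strand.

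STAT2, which carries the transactivation domain of the interferon-activated complex (chr12:56341597-56360155, minus strand), was at 36.6, 41.2 and 36.2 CPM with DMSO, 95.3, 76.7 and 66.4 with CS2, and 63.0, 41.2 and 51.0 with FB23-2. The CS2 libraries were above all others, while the lowest FB23-2 library barely exceeded the highest DMSO library. STAT2 was 2.09-fold higher with CS2 (1.07 ± 0.14, adjusted p = 1.79e-05), and FB23-2 was below CS2 by 1.54-fold (-0.62 ± 0.14, adjusted p = 0.0015). Its rise with FB23-2 (0.44 ± 0.14, adjusted p = 0.0172) was lost without DMSO replicate 1 (0.42, adjusted p = 0.0543), DMSO replicate 3 (0.41, adjusted p = 0.0581) or FB23-2 replicate 1 (0.29, adjusted p = 0.069).

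IRF9, the DNA-binding subunit of that complex (chr14:24161053-24166565, plus strand), was at 1.97, 2.10 and 2.33 CPM with DMSO, 3.24, 2.42 and 2.23 with CS2, and 3.10, 2.61 and 3.32 with FB23-2. Its rise with FB23-2 lay at the threshold (0.49 ± 0.20, adjusted p = 0.04999) and was lost in 9 of 19 alternatives. Among these were the fits that left out DMSO replicate 1 (adjusted p = 0.137), 2 (0.111) or 3 (0.0701), CS2 replicate 2 (0.0579), and FB23-2 replicate 1 (0.0902) or 3 (0.131). With CS2 it did not pass (0.30 ± 0.21, adjusted p = 0.239). The gene shares 48.4% of its exon bases with AL136295.5 on the same strand, so its counts are uncertain. IRF3, the factor present before infection and activated by phosphorylation (chr19:49659569-49665875, minus strand), was at 36.0 to 41.5 CPM with DMSO, 41.9 to 49.6 with CS2 and 36.4 to 47.6 with FB23-2. With all libraries IRF3 did not pass (0.22 ± 0.11, adjusted p = 0.0853 for CS2, and 0.12 ± 0.11, adjusted p = 0.375 for FB23-2). For CS2 it passed without FB23-2 replicate 2 (adjusted p = 0.0272) and with only the CS2 and DMSO libraries fitted (adjusted p = 0.0248). BCL2L12 covers 19.4% of its exon bases from the opposite strand.

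ISG15, a ubiquitin-like protein that is attached to other proteins in infected cells (chr1:1001138-1014540, plus strand), was at 1.61, 1.37 and 1.38 CPM with DMSO, 4.63, 3.52 and 4.76 with CS2, and 1.91, 0.863 and 2.01 with FB23-2. The CS2 libraries stood above the rest, and the FB23-2 libraries straddled the DMSO values. ISG15 was 2.96-fold higher with CS2 (1.57 ± 0.26, adjusted p = 4.38e-05), 0.12 ± 0.27 from DMSO with FB23-2 (adjusted p = 0.733), and 2.73-fold lower with FB23-2 than with CS2 (-1.45 ± 0.26, adjusted p = 6.79e-05). HERC5, the ligase that attaches ISG15 (chr4:88457117-88506163, plus strand), had 8, 3 and 11 counts with DMSO, 18, 30 and 25 with CS2, and 18, 24 and 32 with FB23-2. Its log2 fold changes were 2.03 ± 0.45 (adjusted p = 8.79e-04) and 1.82 ± 0.45 (adjusted p = 0.002), from levels below 1.01 CPM in every library. HERC5 entered the test only through the treated groups, so it had to be higher there, and these p-values do not support that direction.

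USP18, the protease that removes ISG15 and holds back the interferon receptor (chr22:18149899-18177397, plus strand), went the other way. It was at 76.7, 76.1 and 69.3 CPM with DMSO, 51.7, 54.7 and 57.0 with CS2, and 34.5, 32.7 and 30.9 with FB23-2. The 3 groups did not overlap. USP18 was 1.36-fold lower with CS2 (-0.44 ± 0.08, adjusted p = 2.06e-04) and 2.26-fold lower with FB23-2 (-1.18 ± 0.09, adjusted p = 1.08e-09), and FB23-2 was 1.66-fold below CS2 (adjusted p = 4.12e-07). It is the only tested member called lower with both compounds, which share their controls, and its calls held in all 19 alternatives. USP41, a near-identical copy, holds 23.4% of the 50-base windows of its transcripts, so part of its reads may have been split or set aside.

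Some products of the IFIT genes bind RNA with foreign 5′ ends. All 4 genes rose with both compounds, beside 24.3% of all genes tested with CS2 and 25.4% with FB23-2. Both comparisons share the DMSO libraries. None of the 4 passed between the compounds, where 59.6% of all genes tested did. IFIT1 (chr10:89392546-89406486, plus strand) was at 7.47, 8.59 and 7.44 CPM with DMSO, 12.4, 16.3 and 15.7 with CS2, and 12.3, 13.6 and 9.86 with FB23-2. The treated libraries all exceeded the DMSO libraries. IFIT1 was 1.89-fold higher with CS2 (0.92 ± 0.14, adjusted p = 2.3e-05) and 1.53-fold higher with FB23-2 (0.61 ± 0.14, adjusted p = 0.0013). The difference between the compounds, -0.31 ± 0.14 (adjusted p = 0.0639), passed without CS2 replicate 1 (-0.43, adjusted p = 0.0178) or FB23-2 replicate 2 (-0.42, adjusted p = 0.0116).

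IFIT3 (chr10:89327894-89340971, plus strand) was at 0.921, 1.59 and 1.67 CPM with DMSO, 4.63, 2.78 and 3.73 with CS2, and 4.44, 3.50 and 3.67 with FB23-2. It was 2.67-fold higher with CS2 (1.42 ± 0.24, adjusted p = 7.16e-05) and 2.77-fold higher with FB23-2 (1.47 ± 0.24, adjusted p = 4.03e-05), and the compounds differed by 0.05 ± 0.22. IFIT2 rose from 1.41 ± 0.18 to 3.33 ± 0.60 CPM with CS2 and 2.40 ± 0.47 with FB23-2 (mean ± SD, n = 3). FB23-2 was below CS2 for IFIT2 without CS2 replicate 3 (-0.58, adjusted p = 0.0412) or FB23-2 replicate 2 (-0.59, adjusted p = 0.0363) but not with all libraries (-0.47 ± 0.21, adjusted p = 0.0668). IFIT5 rose least, by 0.38 ± 0.13 with CS2 and 0.53 ± 0.13 with FB23-2 on the log2 scale. Its call with CS2 (adjusted p = 0.0166) was lost without DMSO replicate 1 (0.0675) or 3 (0.0667) and without CS2 replicate 2 (0.0502) or 3 (0.0638). That call was also lost with a correction for gene span (0.0835).

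The 2-5A synthetases are activated by double-stranded RNA and make a short oligoadenylate messenger. OAS3, the most abundant (chr12:112938352-112973249, plus strand), was at 138, 134 and 137 CPM with DMSO, 164, 172 and 161 with CS2, and 97.1, 88.5 and 94.0 with FB23-2. The 3 groups did not overlap, with CS2 above and FB23-2 below DMSO. OAS3 rose 1.22-fold with CS2 (0.28 ± 0.07, adjusted p = 0.0027) and was 1.47-fold lower with FB23-2 (-0.55 ± 0.07, adjusted p = 2.61e-06), and FB23-2 was 1.78-fold below CS2 (-0.83 ± 0.07, adjusted p = 6.89e-09). OAS1 was at 2.93 ± 0.43 CPM with DMSO, 4.07 ± 0.65 with CS2 and 3.76 ± 0.31 with FB23-2 (mean ± SD, n = 3). Its rise with CS2 (0.47 ± 0.19, adjusted p = 0.0387) was lost when DMSO replicate 2 (adjusted p = 0.127) or 3 (0.138), or CS2 replicate 1 (0.0537) or 2 (0.186), was left out. That rise was also lost with no filter on low counts (0.0739) and with a correction for gene span (0.113). With FB23-2 OAS1 did not pass (0.36 ± 0.18, adjusted p = 0.106).

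CMPK2, a mitochondrial nucleotide kinase, and RSAD2, which encodes viperin and makes a chain-terminating nucleotide, fell with FB23-2. CMPK2 (chr2:6840570-6866635, minus strand) was at 10.5, 9.73 and 10.2 CPM with DMSO, 13.6, 12.5 and 12.5 with CS2, and 2.65, 2.37 and 2.80 with FB23-2. Each FB23-2 library was far below the other 6. It was 3.89-fold lower with FB23-2 than with DMSO (-1.96 ± 0.14, adjusted p = 5.42e-10), and 4.94-fold lower than with CS2 (-2.31 ± 0.14, adjusted p = 3.77e-11). Its rise with CS2 was small (0.34 ± 0.12, adjusted p = 0.0236) and was lost when DMSO replicate 2 (adjusted p = 0.0877) or 3 (0.0719), or CS2 replicate 1 (0.0802), was left out. That rise was also lost with no filter on low counts (0.062) and with a correction for gene span (0.23, adjusted p = 0.12). RSAD2 (chr2:6865806-6898239, plus strand) was at 4.87, 5.57 and 5.46 CPM with DMSO, 4.98, 5.17 and 5.26 with CS2, and 3.43, 2.95 and 3.85 with FB23-2. RSAD2 was 1.56-fold lower with FB23-2 than with DMSO (-0.64 ± 0.16, adjusted p = 0.0022) and did not pass with CS2 (-0.04 ± 0.16, adjusted p = 0.833).

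MX1, a GTPase that traps viral nucleocapsids (chr21:41420304-41459214, plus strand), was the only barrier gene with enough reads. It was at 0.237, 0.541 and 0.555 CPM with DMSO, 2.18, 1.98 and 1.83 with CS2, and 1.28, 1.22 and 1.20 with FB23-2. The groups did not overlap. MX1 was 4.47-fold higher with CS2 (2.16 ± 0.30, adjusted p = 6.83e-06) and 2.76-fold higher with FB23-2 (1.47 ± 0.31, adjusted p = 5.35e-04). MX1 passed the filter on low counts through the treated groups, with 2 of 3 DMSO libraries reaching its minimum. The p-values against DMSO are thus not taken as support for the direction. The gap between the compounds (-0.69 ± 0.27, adjusted p = 0.0317) was lost without CS2 replicate 1 (adjusted p = 0.093) or 2 (0.063). It was also lost without FB23-2 replicate 1 (0.0535), 2 (0.056) or 3 (0.0743), and with no filter on low counts (0.0501).

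IFI27 and IFI6, related small mitochondrial proteins strongly induced by type I interferon, rose with CS2. IFI27 (chr14:94104836-94116698, plus strand) was at 0.842, 0.859 and 0.666 CPM with DMSO, 6.81, 4.90 and 4.13 with CS2, and 0.984, 0.767 and 0.904 with FB23-2. The CS2 libraries were several times above the other 6, which overlapped. IFI27 was 6.73-fold higher with CS2 than with DMSO (2.75 ± 0.24, adjusted p = 1.67e-08) and 5.99-fold lower with FB23-2 than with CS2 (-2.58 ± 0.24, adjusted p = 1.87e-08), while FB23-2 against DMSO gave 0.17 ± 0.27 (adjusted p = 0.625). IFI6 (chr1:27666061-27672218, minus strand) was at 4.58, 2.77 and 4.02 CPM with DMSO, 11.3, 9.69 and 10.8 with CS2, and 5.96, 2.78 and 5.6 with FB23-2. It was 2.78-fold higher with CS2 (1.47 ± 0.23, adjusted p = 3.99e-05) and 2.23-fold lower with FB23-2 than with CS2 (-1.16 ± 0.23, adjusted p = 2.66e-04). With FB23-2 against DMSO, IFI6 did not pass (0.32 ± 0.24, adjusted p = 0.274) but did without FB23-2 replicate 2, the library with the most mitochondrial counts (0.60, adjusted p = 0.0051).

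IFI35, a regulator of RIG-I and NF-kappaB signalling (chr17:43006725-43014456, plus strand), was at 5.32, 5.73 and 5.93 CPM with DMSO, 22.2, 20.3 and 24.1 with CS2, and 13.9, 8.92 and 12.5 with FB23-2. The groups did not overlap, with FB23-2 between DMSO and CS2. It was 3.92-fold higher with CS2 (1.97 ± 0.15, adjusted p = 1.62e-09) and 2.07-fold higher with FB23-2 (1.05 ± 0.15, adjusted p = 6.44e-06), with FB23-2 1.89-fold below CS2 (adjusted p = 1.07e-05). LGALS3BP was raised with both compounds, from 169 ± 4.1 CPM with DMSO to 237 ± 10 with CS2 (0.49 ± 0.08, adjusted p = 2.66e-05) and 250 ± 23 with FB23-2 (0.56 ± 0.08, adjusted p = 4.48e-06). The compounds differed by 0.08 ± 0.08 for LGALS3BP (adjusted p = 0.406), and by 0.25 (adjusted p = 0.0036) after a correction for gene span.

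ADAR, whose product converts adenosine to inosine in double-stranded RNA and keeps the cell's own RNA from triggering MDA5 (chr1:154582057-154628013, minus strand), was at 415, 415 and 419 CPM with DMSO, 500, 507 and 472 with CS2, and 355, 347 and 355 with FB23-2. The 3 groups did not overlap. The shifts were small: 1.18-fold higher with CS2 (0.24 ± 0.07, adjusted p = 0.0044) and 1.18-fold lower with FB23-2 (-0.24 ± 0.07, adjusted p = 0.0045). Between the compounds ADAR differed 1.40-fold (-0.48 ± 0.07, adjusted p = 3.03e-06), and the 3 calls held in all 19 alternatives. The counts do not separate the interferon-inducible p150 isoform from the constitutive p110 isoform.

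PARP9 and DTX3L, which form a complex that joins ADP-ribosylation to ubiquitination, and PARP14, an ADP-ribosyltransferase, were each lower with FB23-2 than with CS2. In that comparison 30% of all genes tested were lower. PARP9 was at 4.38 ± 0.54 CPM with DMSO, 5.95 ± 0.61 with CS2 and 3.96 ± 0.43 with FB23-2 (mean ± SD, n = 3). FB23-2 was 1.5-fold below CS2 for PARP9 (adjusted p = 0.0046), 1.38-fold for DTX3L (adjusted p = 0.0058) and 1.39-fold for PARP14 (adjusted p = 0.0222). The call for DTX3L was lost without CS2 replicate 3 (adjusted p = 0.0542) or with a correction for gene span (0.0596). That for PARP14 was lost without CS2 replicate 1 (0.0935) or 2 (0.0906) or FB23-2 replicate 3 (0.0662). PARP14 rose 1.65-fold with CS2 (0.73 ± 0.17, adjusted p = 0.0018). PARP9 also rose with CS2 (0.44 ± 0.16, adjusted p = 0.0303), but not when DMSO replicate 1 (adjusted p = 0.13) or 3 (0.0556), or CS2 replicate 2 (0.0998) or 3 (0.0826), was left out. Nor did PARP9 pass with no filter on low counts (0.0562) or with a correction for gene span (0.0731). DTX3L missed the threshold with CS2 (0.32 ± 0.14, adjusted p = 0.0578) and passed without CS2 replicate 2 (0.0236) or FB23-2 replicate 2 (0.0309), by DESeq2 (0.0454), and with only the CS2 and DMSO libraries fitted (0.0298). None of these genes passed with FB23-2 against DMSO.

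Upstream of the members, transcripts of interferon itself were nearly absent, with an exception for IFNB1 under FB23-2. IFNB1, the gene of interferon beta (chr9:21077105-21077963, minus strand), had 0, 0 and 2 counts with DMSO, 0, 0 and 0 with CS2, and 12, 17 and 15 with FB23-2. Every FB23-2 library was above every other library. Over the group this was 0.401 CPM with FB23-2 (95% exact interval 0.292 to 0.539), 23 times the level with DMSO (6 to 196, counting error only) and at least 12.6-fold higher than CS2, whose 0 counts were set to 3 over the group. By edgeR's test FB23-2 passed against DMSO (adjusted p = 3.21e-04) and against CS2 (adjusted p = 1.01e-04). IFNB1 entered the test only through the FB23-2 libraries, so it had to be higher there, and these p-values do not support that direction. Of the 21 genes of the list of ligands and chemokines 3 were tested, IFNB1, CXCL8 and TNF. TNF rose with FB23-2 (log2 fold change 0.87 ± 0.36, adjusted p = 0.0471), a call lost when DMSO replicate 1 (adjusted p = 0.0877), 2 (0.158) or 3 (0.0547), or FB23-2 replicate 2 (0.103) or 3 (0.111), was left out, and by DESeq2 (0.0713) or with no filter on low counts (0.0997). CXCL8 also entered the test only through the FB23-2 libraries, with 11, 8 and 0 counts with DMSO, 12, 4 and 18 with CS2, and 14, 28 and 40 with FB23-2.

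Of 24 genes of interferon receptors and proximal signalling, 8 rose and 3 fell with CS2 (33.3% and 12.5%, against 24.3% and 25.3% of all genes tested, median 0.08). With FB23-2, 8 rose and 6 fell (33.3% and 25%, against 25.4% and 26.7%, median 0.11). The kinases of the type I receptor divided: TYK2 was 124 ± 6.9 CPM with DMSO, 224 ± 30 with CS2 and 120 ± 17 with FB23-2, while JAK1 was 52.1 ± 1.8, 57.9 ± 3.4 and 104 ± 18. TYK2 rose with CS2 (0.86 ± 0.10, adjusted p = 7.7e-07) and JAK1 with FB23-2 (1.00 ± 0.10, adjusted p = 8.17e-08), and the compounds differed for both (-0.90 ± 0.10 and 0.85 ± 0.10). STAT6, which acts in interleukin signalling, rose 7.08-fold with CS2, from 1.10 ± 0.25 to 7.90 ± 0.15 CPM. With FB23-2 STAT6 stood at 1.5 ± 0.52 CPM and did not pass (adjusted p = 0.158), except without FB23-2 replicate 3 (0.62, adjusted p = 0.0477). SOCS3, a feedback inhibitor, was lower with FB23-2 (-1.34 ± 0.18, adjusted p = 4e-06) and with CS2 (-0.57 ± 0.17, adjusted p = 0.0105), the latter not without CS2 replicate 2 (adjusted p = 0.0813). SOCS1, another feedback inhibitor, rose with CS2 (0.98 ± 0.22, adjusted p = 8.93e-04) and did not pass with FB23-2 (0.25 ± 0.22, adjusted p = 0.36).

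The chains of the type I receptor moved little. IFNAR1 was 87.4 ± 4.9 CPM with DMSO, 71.9 ± 3.5 with CS2 and 89.8 ± 11 with FB23-2. Its fall with CS2 (-0.28 ± 0.09, adjusted p = 0.0134) was lost when DMSO replicate 2 (adjusted p = 0.062) or 3 (0.054), or CS2 replicate 3 (0.0669), was left out. IFNAR2 was 5.15 ± 0.42, 4.48 ± 1.2 and 6.99 ± 0.63 CPM, and its rise with FB23-2 (0.44 ± 0.17, adjusted p = 0.0368) was lost without any of DMSO replicates 1 (adjusted p = 0.128), 2 (0.0559) and 3 (0.0783) or FB23-2 replicates 1 (0.0634) and 2 (0.0752). That rise was also lost with a correction for gene span (0.0595). Another annotated gene, AP000295.1 on the same strand, covers 83.3% of the exon bases of IFNAR2, so its counts are uncertain. IFNGR1, a chain of the type II receptor, rose with CS2 (0.75 ± 0.09, adjusted p = 1.42e-06) and with FB23-2 (0.96 ± 0.09, adjusted p = 4.29e-08).

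Of 28 tested genes among the adaptors and kinases of RNA sensing, 9 rose and 5 fell with CS2 (32.1% and 17.9%, against 24.3% and 25.3% of all genes tested, median 0.20). With FB23-2, 5 rose and 7 fell (17.9% and 25%, against 25.4% and 26.7%, median -0.02), near or below the shares over all genes. IRF2, a repressor of interferon genes, was 9.997 ± 1.3 CPM with DMSO, 3.48 ± 0.77 with CS2 and 11.5 ± 3.6 with FB23-2, a 2.86-fold fall with CS2 (adjusted p = 5.29e-06). TBKBP1, which binds the kinase TBK1, rose with CS2 (0.55 ± 0.12, adjusted p = 7.75e-04) and fell with FB23-2 (-1.02 ± 0.13, adjusted p = 1.36e-06). MYD88, the adaptor of Toll-like receptors, fell with FB23-2 from 15.8 ± 0.69 to 5.76 ± 0.53 CPM (adjusted p = 5.99e-09), and NFKB1, a subunit of NF-kappaB, from 19.7 ± 0.70 to 7.74 ± 0.86 CPM (adjusted p = 7.95e-09). The 5 that rose with FB23-2 were TRAF6 (0.84 ± 0.12), IRF5 (0.63 ± 0.14), TANK (0.62 ± 0.13), TRAF3 (0.39 ± 0.09) and TBK1 (0.38 ± 0.10), with adjusted p of 0.0036 or less.

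All 10 genes of the double-stranded RNA effector list were tested: 2 rose and 5 fell with CS2 (median -0.20), and 3 rose and 4 fell with FB23-2 (median -0.10), beside 49.7% and 52% of all genes tested that were called in either direction. DHX9, a helicase that unwinds double-stranded RNA, was 762 ± 17 CPM with DMSO, 573 ± 47 with CS2 and 327 ± 37 with FB23-2, 2.33-fold below DMSO (-1.22 ± 0.09, adjusted p = 5.46e-10). EIF2AK2, the kinase PKR, was 74.5 ± 2.9, 89.1 ± 6.7 and 81.9 ± 14 CPM. Its rise with CS2 (0.26 ± 0.10, adjusted p = 0.0377) was lost when DMSO replicate 1 (adjusted p = 0.102), 2 (0.0569) or 3 (0.116), or CS2 replicate 1 (0.0512) or 2 (0.17), was left out. FB23-2 was below CS2 for EIF2AK2 without FB23-2 replicate 2 (-0.27, adjusted p = 0.0049), and not with all libraries (-0.12 ± 0.10, adjusted p = 0.31).

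On the DNA sensing side, CGAS was not tested, with 2, 1 and 3 counts in the DMSO libraries, 4, 0 and 2 in the CS2 libraries and 0, 1 and 0 in the FB23-2 libraries, and STING1 stood at 0.288 ± 0.099, 0.26 ± 0.16 and 0.25 ± 0.25 CPM, with adjusted p of 0.738 or more. Of the 14 tested genes of DNA sensing and nucleic acid turnover, 7 rose and 2 fell with CS2 (50% and 14.3%, against 24.3% and 25.3% of all genes tested, median 0.39). With FB23-2, 5 rose and 2 fell (35.7% and 14.3%, against 25.4% and 26.7%, median 0.13). RNASEH2A, a subunit of the enzyme that removes RNA from RNA-DNA hybrids, was 1.98 ± 0.23 CPM with DMSO and 11.5 ± 0.59 with CS2, 5.80-fold higher (adjusted p = 1.32e-10). With FB23-2 it was 2.77 ± 0.18 CPM (0.48 ± 0.17, adjusted p = 0.0207). This no longer passed once DMSO replicate 2 was left out (adjusted p = 0.0912) or with no filter on low counts (0.06). Of the exon bases of RNASEH2A, 30.8% are shared with THSD8. DNASE2, the lysosomal DNase, rose with CS2 (0.67 ± 0.09, adjusted p = 6.6e-06) and with FB23-2 (1.41 ± 0.09, adjusted p = 2.71e-10).

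A list of 61 further interferon-stimulated genes, which also holds the member IFIH1, had 46 tested. With CS2 23 rose and 2 fell (50% and 4.35%, against 24.3% and 25.3% of all genes tested, median 0.44). With FB23-2 19 rose and 8 fell (41.3% and 17.4%, against 25.4% and 26.7%, median 0.23). FB23-2 was above CS2 in 9 and below it in 20 (19.6% and 43.5%, against 29.7% and 30%, median -0.20). TRIM21, a cytosolic antibody receptor, rose by 1.14 ± 0.27 with CS2 (adjusted p = 0.0018) and 1.37 ± 0.27 with FB23-2 (adjusted p = 2.73e-04) on the log2 scale. APOL6, an apolipoprotein L, was 7.97 ± 1.3 CPM with DMSO, 11.4 ± 1.1 with CS2 and 35.3 ± 3.6 with FB23-2. LAMP3, a lysosomal membrane protein, was 2.91 ± 0.53, 3.66 ± 0.39 and 17.3 ± 2.9 CPM, 5.95-fold higher with FB23-2 (adjusted p = 1.78e-10). LAMP3 did not pass with CS2 (0.33 ± 0.18, adjusted p = 0.128). Both genes were higher with FB23-2 than with CS2 (adjusted p = 1.17e-09 for APOL6 and 6.63e-10 for LAMP3), where IFI27, IFI6 and ISG15 were lower.

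Read against their promoters, 13 tested members had the response element core in the 300-base window and 11 had an entry without it. PARP9 and RSAD2 are among the 11 but hold the core in another of their start windows. With CS2, 11 of the 13 rose and 0 fell, against 7 and 1 of the 11. With FB23-2, 7 rose and 1 fell (OAS3) of the 13, and 4 rose and 3 fell of the 11. Against CS2, FB23-2 was lower in 7 and higher in 0 of the 13, and lower in 6 and higher in 2 of the 11. Promoters with 2 matches belonged to members that parted under FB23-2: IFI27 and ISG15 did not pass, IFIT1 and IFIT3 rose, and OAS3 fell. Of all genes tested, 24.3% rose and 25.3% fell with CS2, 25.4% and 26.7% with FB23-2, and FB23-2 was higher than CS2 in 29.7% and lower in 30%. HERC5 and MX1, which passed the filter through the treated groups, are among the 13. These counts are a description, and no test was made of them.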

How the data were processed

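Libraries of messenger RNA from NCI-H69 were made from TRIzol RNA with a Hieff NGS Ultima kit, as the labels' protocols state. What the authors deposited is a table of raw read counts, with no normalization. The submitters' processing notes name hg38 as the build, and the sources used here give no aligner, counting tool, annotation or strand setting. Columns named FB23 were taken as FB23-2, the only such treatment of H69 in the labels. Members and lists were chosen with earlier results of these data known, so no list was tested.

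Of 62754 identifiers, 42343 had a symbol and 58261 were in GENCODE release 29, the source of coordinates, exon overlap and lengths. Counts were analysed with edgeR 4.0.16 in R 4.3.3: filterByExpr by group (minimum count 10, total 15) left 19781 genes with at least 99.9% of counts, followed by TMM and a robust quasi-likelihood fit of all 9 libraries without covariates (biological coefficient of variation 0.101). Genes were called where the p-value adjusted by Benjamini-Hochberg over the 19781 was under 0.05. The SE is the log2 fold change divided by the square root of F. CPM used TMM-scaled library sizes, and TPM used exon lengths. Reads carried no molecular identifiers and are not independent molecules, so intervals hold for counting error alone. The scripts were tested on simulated data. No library was treated as a duplicate: within a group, the smallest chi-square per degree of freedom between libraries was 4.16. Promoter windows came from RefSeq (GRCh38.p14).

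Members may all be named. Full values were given for the sensors, IRF and STAT factors, ADAR, ISG15 and IFIT1, for members called in opposite directions, and for the largest changes (8 each way against DMSO, 6 between compounds). Of each other list up to 4 called genes with the largest change per compound could be named, and part of these is printed, since results for some are not reported here. Alternatives were RLE scaling, library size alone, no mitochondrial genes, other filters, DESeq2 1.42.0, no robust estimation, only the 2 groups compared, a replicate block, a correction for gene span, and leaving out each library.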

Additional observations from a re-analysis of the deposited data

How the results depend on the processing

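Of 22, 18 and 16 member calls (CS2 against DMSO, FB23-2 against DMSO, FB23-2 against CS2), 18, 16 and 12 held in every alternative, and the rest are named in the report. Over 1593 fits of single members, 46 lost a call and 19 gained 1. The sign turned in some alternative for 0 called values and for 7 that did not pass: MAVS in all 3 comparisons, ISG15 with FB23-2 (-0.07 to 0.44), and IFIT3 (-0.12 to 0.24), IRF3 (-0.21 to 0.07) and OAS1 (-0.2 to 0.02) between the compounds. Leaving out each library in turn gave 16 to 23 members higher with CS2 (20 with all libraries), 11 to 14 higher with FB23-2 (13), and between the compounds 1 to 3 higher (2) and 12 to 15 lower (14). The members lower with CS2 (2) and FB23-2 (5) did not change in number. Over all genes these fits called 8345 to 11024, 8795 to 10491 and 10965 to 11848. The correction for gene span gave 16 members higher with CS2 and 4 higher with FB23-2 than with CS2, since IFIT5 and LGALS3BP then passed. Without a filter on low counts, the median over the members then fitted was 0.5 for FB23-2 against DMSO and -0.12 between the compounds, where genes with very few counts enter. Among called genes of the other lists that were refitted, the sign reversed for STAU2, with CS2 under the span correction (0.16, adjusted p = 0.177, against -0.45).

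Same-numbered libraries did not deviate together throughout (correlations of -0.03 to -0.013 for DMSO with CS2, -0.016 to 0.021 for DMSO with FB23-2, 0.049 to 0.167 for CS2 with FB23-2), so the numbers were not taken to pair them. Libraries with different numbers gave -0.006 to 0.021, -0.035 to 0.028 and -0.138 to 0.02. Same-numbered CS2 and FB23-2 libraries thus deviated together more than differently numbered ones, which the main fit leaves out. With the replicate block, 22 members rose and 2 fell with CS2, 12 rose and 5 fell with FB23-2, and 2 were higher and 15 lower with FB23-2 than with CS2, and 10271, 10698 and 12136 genes were called in all. The block ended the call of IRF9 with FB23-2 (adjusted p = 0.0516) and added DTX3L (0.0431) and IRF3 (0.0279) with CS2 and IFIT1 between the compounds (0.0375). Members at low levels, such as HERC5, RIGI and MX1, rest on few counts, and depth limits what can be said of the 15 untested members.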

Other observations

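Several members are neighbours on a chromosome, and neighbours did not always move alike. On chromosome 10, IFIT2, IFIT3, IFIT1 and IFIT5 lie in a row on the plus strand, and all 4 rose with each compound, from 0.38 (IFIT5) to 1.42 (IFIT3) with CS2 on the log2 scale. Of all genes tested, 24.3% rose with CS2 and 25.4% with FB23-2, from the same controls. The call of IFIT5 with CS2 was lost in 5 of 19 alternatives. On chromosome 12, OAS1, OAS3 and OAS2 lie in a row, and FB23-2 gave 0.36 for OAS1 (adjusted p = 0.106 by edgeR) and -0.55 for OAS3 (adjusted p = 2.61e-06), while OAS2 had too few counts to be tested. CMPK2 and RSAD2 start head to head on chromosome 2 with overlapping 5′ ends, and both fell with FB23-2, CMPK2 by 1.96 and RSAD2 by 0.64 on the log2 scale. With CS2 they gave 0.34 and -0.04. PARP9 and DTX3L, a head-to-head pair on chromosome 3, gave -0.58 and -0.47 between FB23-2 and CS2, with PARP14 downstream at -0.48. HERC5, which entered the test only through the treated groups, rose with both compounds. HERC6 next to it on chromosome 4 had sums of 8, 12 and 18 counts in the DMSO, CS2 and FB23-2 libraries. No test of neighbours against other genes was made.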
